A study of Mus musculus with 15 samples.

Results

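The genes described here are *Cxcr4*, its ligand gene *Cxcl12*, the gene of the second CXCL12 receptor *Ackr3*, and 3 further chemokine genes, *Cxcl1*, *Ccl2* and *Ccl7*, in 21EM15 cells, an immortalized mouse lens epithelial line. They were listed by name and matched to the gene symbols of the data. Of the 6 genes, 5 had values in both the culture table (11677 genes) and the region table (11299 genes), and *Cxcl1* had values in the culture table only. The series holds 15 samples of 3′ end RNA sequencing. All came from this same line, labelled WT, with no transgene or agent. The groups were 4 samples of 2D cultures (dishes of near-confluent cells), 4 of 3D cultures (spheroids grown in round-bottom wells coated with polyhema, a polymer to which cells do not attach), and spheroids cut by laser capture microdissection, with 4 samples of their internal and 3 of their external region. Each 3D or microdissected sample pooled many spheroids, and neither the labels nor the methods say that replicates came from separately thawed or passaged cultures, so the p-values measure the spread between these samples, which may be technical. The region between the internal and the external one was not dissected. By the paper's methods, spheroids were grown for longer than dishes usually take to become near-confluent. Time in culture and growth in 3D therefore cannot be told apart.

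Chemokines are small secreted proteins that guide moving cells through G protein-coupled receptors. CXCL12 binds CXCR4, which signals through Gαi proteins to PI3 kinases and Rac and is switched off by receptor kinases and arrestins, and it also binds ACKR3 (CXCR7), an atypical receptor that takes up and removes the ligand. CCL2 and CCL7 are monocyte chemoattractants, CCL8 is a further CC chemokine, and CXCL1 attracts neutrophils. In the eye, epithelial cells make several of these ligands under stress, and the lens itself has no vessels and normally no resident leukocytes.

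On the mouse genome build GRCm38, *Cxcr4* (ENSMUSG00000045382) lies at chr1:128588199-128592293 on the minus strand and *Ackr3* (ENSMUSG00000044337) at chr1:90203980-90216751 on the plus strand. *Cxcl12* (ENSMUSG00000061353) lies at chr6:117168535-117181367 and *Cxcl1* (ENSMUSG00000029380) at chr5:90891241-90893115, both on the plus strand. *Ccl2* (ENSMUSG00000035385, chr11:82035571-82037453) and *Ccl7* (ENSMUSG00000035373, chr11:82045712-82047525) are neighbours on the plus strand, separated by 8258 bases, and *Ccl8* (ENSMUSG00000009185, chr11:82115185-82116799) follows 67659 bases after *Ccl7*. None of these genes shared a stretch of 50 nt with another gene within the last 300 nt of its transcripts, where 3′ end reads fall.

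The promoters of the ligand and its receptors are shown because the results below turn on these genes. In the RefSeq table used here (build GRCm38.p6), which gives the bases from 250 before to 50 after a start, 4 of the 6 genes were matched. In the sequences below, read 5′ to 3′ along the gene, capitals mark GC boxes (GGGCGG, or CCGCCC where it lies on the other strand) and TATA boxes (TATAAA, or TTTATA on the other strand).
*Cxcr4*, chr1:128592250-128592549, minus strand: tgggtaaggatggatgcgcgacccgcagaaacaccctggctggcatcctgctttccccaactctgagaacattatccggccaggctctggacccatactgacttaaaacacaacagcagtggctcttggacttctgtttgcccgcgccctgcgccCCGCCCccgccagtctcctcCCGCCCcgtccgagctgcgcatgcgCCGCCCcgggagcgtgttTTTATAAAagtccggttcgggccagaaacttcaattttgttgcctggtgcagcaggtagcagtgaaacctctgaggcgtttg
*Ackr3*, chr1:90203730-90204029, plus strand: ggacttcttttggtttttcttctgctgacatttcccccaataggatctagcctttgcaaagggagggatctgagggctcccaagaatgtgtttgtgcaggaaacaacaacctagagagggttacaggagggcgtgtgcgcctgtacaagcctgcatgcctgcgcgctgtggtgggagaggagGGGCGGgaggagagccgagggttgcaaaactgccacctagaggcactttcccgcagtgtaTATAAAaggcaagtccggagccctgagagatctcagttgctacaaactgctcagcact
*Cxcl12*, chr6:117168285-117168584, plus strand: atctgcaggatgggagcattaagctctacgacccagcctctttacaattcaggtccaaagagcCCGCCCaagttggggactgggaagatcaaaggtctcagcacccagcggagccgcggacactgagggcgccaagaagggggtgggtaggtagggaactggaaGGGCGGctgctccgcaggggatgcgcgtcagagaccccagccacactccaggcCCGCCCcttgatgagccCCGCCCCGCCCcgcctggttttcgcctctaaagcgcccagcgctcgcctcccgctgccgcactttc

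The *Cxcr4* window held 3 GC boxes, all on the strand opposite to the gene, and a run in which TATAAA at position -30 from the start overlaps TTTATA at -32. The *Ackr3* window held 1 GC box and 1 TATA box, at -8. The *Cxcl12* window held 5 GC boxes, a pair of which overlap, and no TATA box. Among 32851 mouse promoter windows of 300 bases, 35.7% held GGGCGG and 13.6% held TATAAA on either strand. The core of the hypoxia response element (ACGTG, in 19.6% of all windows) and a kB-type sequence (GGNNNTTCC, in 18.5%) were also searched on both strands. Neither matched the letters of these 3 windows, which says nothing of binding elsewhere. The *Cxcl1* window held 1 ACGTG and 3 kB-type matches, of which a pair are the same bases read on both strands.

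Expression is given as log2 CPM (reads scaled to library size, on a log2 scale) and as whole reads recovered from these values. In this assay a transcript yields reads from its 3′ end whatever its length, so CPM levels can be set side by side between genes. Totals over the listed genes were 7305053 to 9362587 reads in the cultures and 4044230 to 11702504 in the regions. The floor of detection was set at 3 reads, which corresponded to 0.312 to 0.409 CPM in the cultures and 0.248 to 0.802 CPM in the regions, and these limits cover counting error only. A gene was called at a Benjamini-Hochberg adjusted p (limma) under 0.01 together with a log2 fold change beyond 1 in either direction. Of 9 lens markers, 6 were measured in both tables (*Pax6*, *Six3*, *Mab21l1*, and *Cryab*, *Prox1* and *Maf*, which lens fiber cells also express), while *Cryaa* and the epithelial genes *Foxe3* and *Cdh1* had no values. *Prox1* had 1 read in 2D replicate 3 and between 327 and 355 in the other 2D samples. Of 12 immune cell markers, the cultures had values for *Cd68* only, at 0.383 to 1.17 CPM in 3D and 0.624 to 1.64 CPM in 2D. The regions had values for *Cd68* and *Csf1r*, summing to 2.06 to 8.20 CPM in internal and 0.165 to 10.01 CPM in external samples. None of 6 endothelial markers had values in either table, and neither did the defining leukocyte gene *Ptprc*.

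To ask which of these genes differ between spheroids and flat cultures, 3D samples were compared with 2D samples. *Cxcr4* rose and the other 5 genes did not pass the test. Its fold change was the 55th highest of 11677 genes. Over all genes of this comparison, 4.43% were called, 2.92% as higher and 1.51% as lower in 3D. Of the 6 measured lens markers none was called, and their median log2 difference was 0.69 against -0.03 over all genes. For 4 of the 6 the groups did not overlap and were higher in 3D, against 12.0% of all genes. Their part in the *Cxcr4* result was not tested.

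*Cxcr4* had 32, 16, 6 and 15 reads in 2D replicates 1 to 4 and 111, 174, 207 and 207 reads in 3D replicates 1 to 4. On the log2 CPM scale this was 1.84, 1.28, -0.09 and 0.85 in 2D and 3.85, 4.44, 4.76 and 4.69 in 3D. The lowest 3D sample lay well above the highest 2D sample. The mean level was 22.0 ± 5.74 CPM in 3D and 1.95 ± 1.11 CPM in 2D (SD, n = 4 each), a ratio of 11.3. On the log2 scale *Cxcr4* was higher by 3.47 ± 0.40 (SE; 95% interval 2.58 to 4.35; limma adjusted p = 0.00077). It was also called when 2D replicate 3, which had the fewest *Cxcr4* reads and the missing *Prox1* signal, was left out (3.11, limma adjusted p = 0.000867). In bulk RNA, fewer cells that express a gene and less of its RNA in each cell cannot be told apart.

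*Ackr3*, the scavenging receptor for the same ligand, had 290, 105, 156 and 152 reads in 2D and 91, 82, 153 and 118 in 3D. The groups overlapped, with the highest value in 2D replicate 1. Its mean was 3.79 ± 0.42 log2 CPM in 3D samples and 4.25 ± 0.48 in 2D samples (SD, n = 4 each), a difference of -0.46 with a 95% interval of -1.09 to 0.17 (limma adjusted p = 0.280). *Ackr3* and *Cxcr4* therefore exchanged their order: in every 2D sample *Ackr3* had more reads than *Cxcr4*, and in every 3D sample it had fewer. The difference *Cxcr4* minus *Ackr3* within a sample ranged from -4.30 to -2.59 on the log2 scale in 2D and from 0.28 to 1.07 in 3D. The mean of this difference was 0.65 ± 0.36 in 3D samples and -3.28 ± 0.72 in 2D samples (SD, n = 4 each; two-sided exact permutation p = 0.0286, the smallest that 4 against 4 samples allow; 0.0762 after Benjamini-Hochberg adjustment over 8 such tests of gene pairs, chosen after their values were seen). It rests in large part on the *Cxcr4* values already given.

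**Figure D1:**
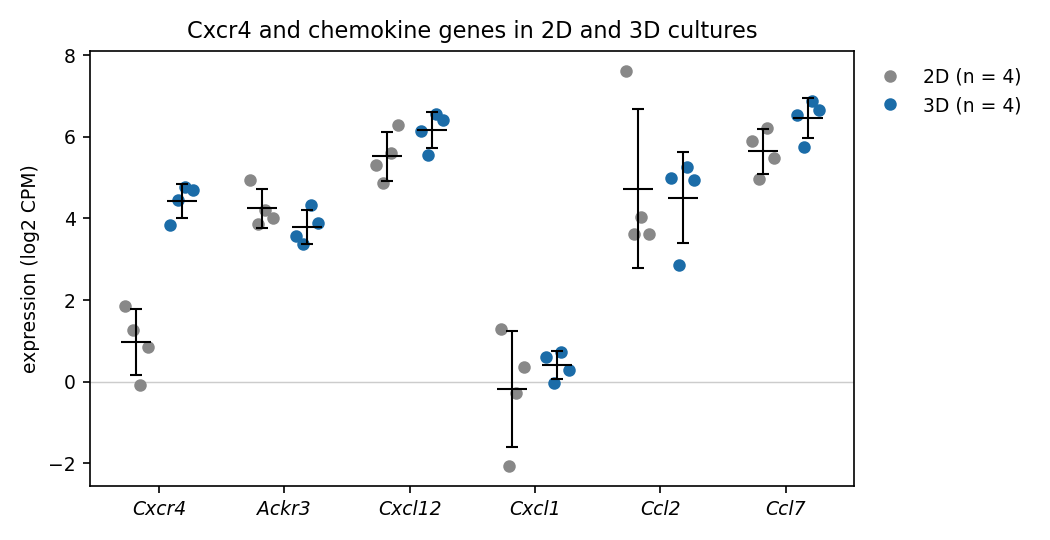
Expression in log2 CPM (vertical axis) of the 6 genes in 2D and 3D cultures. Each point is a sample, and the bars are the mean and SD (n = 4 per group). Only for *Cxcr4* do the groups lie apart. *Ccl2* has one 2D sample far above the other 3, at 7.62.

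*Cxcl12* was well expressed in both cultures. It had 374, 214, 416 and 754 reads in 2D and 547, 376, 723 and 690 in 3D, and the groups overlapped. Its mean was 6.16 ± 0.45 log2 CPM in 3D samples and 5.52 ± 0.60 in 2D samples (SD, n = 4 each). The difference of 0.64 had a 95% interval of -0.03 to 1.31 and did not pass the test (limma adjusted p = 0.165). The ligand thus exceeded its signalling receptor in every culture, by 1.10 to 2.28 on the log2 scale within 3D samples and by 3.46 to 5.70 within 2D samples.

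*Ccl7* had 571, 226, 630 and 429 reads in 2D and 725, 435, 901 and 808 in 3D. All 3D samples but replicate 2 exceeded all 2D samples. The mean was 6.45 ± 0.49 log2 CPM in 3D samples and 5.64 ± 0.54 in 2D samples (SD, n = 4 each), a difference of 0.81 (95% interval 0.16 to 1.46) that did not pass the test (limma adjusted p = 0.080).

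*Ccl2*, its neighbour, had 1880, 89, 139 and 116 reads in 2D and 246, 57, 293 and 246 in 3D. In 2D, replicate 1 stood far above the rest, and in 3D, replicate 2 stood below the rest. The means of 4.51 ± 1.11 log2 CPM in 3D samples and 4.73 ± 1.94 in 2D samples (SD, n = 4 each) differed by -0.22, with a 95% interval of -2.10 to 1.66 (limma adjusted p = 0.881). The sign of this difference turned with either of these libraries: it was 0.75 without 2D replicate 1 and 0.33 without 3D replicate 2, and neither passed the test (limma adjusted p = 0.330 for the former).

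*Cxcl1* was near the limit of detection. It had 21, 0, 5 and 10 reads in 2D and 10, 6, 11 and 8 reads in 3D. The 0 reads of 2D replicate 2 allow a level of up to 0.409 CPM. The means on the log2 CPM scale were 0.40 ± 0.34 in 3D samples and -0.17 ± 1.41 in 2D samples (SD, n = 4 each), and the difference of 0.58 had a 95% interval of -0.90 to 2.06 (limma adjusted p = 0.581). Without 2D replicate 2 the difference was -0.05.

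Placed in order of mean level, the genes in 3D were *Ccl7* and *Cxcl12*, then *Ccl2* and *Cxcr4*, then *Ackr3* and last *Cxcl1*. *Ccl7* and *Cxcl12* lay closer together than the SD of either, and so did *Ccl2* and *Cxcr4*. In 2D, *Cxcr4* came next to last, above *Cxcl1* only, with means of 0.97 ± 0.81 and -0.17 ± 1.41 log2 CPM (SD, n = 4 each), while *Ccl7*, *Cxcl12*, *Ccl2* and *Ackr3* lay between 5.64 and 4.25 log2 CPM.

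Among all 11677 genes, 24.0% had groups that did not overlap, and 12.0% had groups that did not overlap and were higher in 3D. Of the 6 genes, *Cxcr4* alone did so.

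To ask where within the spheroid these genes are expressed, internal samples were compared with external samples. *Cxcl12* was higher in the internal region and was the only gene of the 5 measured that was called. Over all genes of this comparison, 7.62% were called, 3.27% as higher and 4.35% as lower in the internal region. Groups that did not overlap were found for 29.0% of all genes and for 13.5% in the direction of higher internal values. *Cxcl12* and *Cxcr4* were among the latter.

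*Cxcl12* had 704, 1007, 327 and 940 reads in internal replicates 1 to 4 and 443, 129 and 147 in external replicates 1 to 3. Scaled to the depth of each library this was 6.73, 6.87, 6.23 and 6.29 log2 CPM in internal and 6.19, 4.83 and 5.31 in external samples. All internal samples exceeded all external ones, but the lowest internal and the highest external sample nearly met. The means were 6.53 ± 0.32 (SD, n = 4) and 5.44 ± 0.69 (SD, n = 3), a difference of 1.08 ± 0.25 on the log2 scale (SE; 95% interval 0.56 to 1.604; limma adjusted p = 0.00286). The call lay close to both thresholds. Left out in turn, internal replicate 1 (1.02, limma adjusted p = 0.0133), internal replicate 2 (0.97, 0.0132), external replicate 2 (0.78, 0.0453) and external replicate 3 (1.02, 0.0161) each ended it. So did a fit with no trend of the variance with the mean (limma adjusted p = 0.0816). Among the lens markers, *Prox1* (1.45 on the log2 scale, limma adjusted p = 1.3e-07) and *Maf* (1.25, 7.4e-05) were also called higher in the internal region, and their part in the *Cxcl12* result was not tested.

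*Cxcr4* had 32, 48, 71 and 78 reads in internal and 16, 20 and 13 in external samples. On the log2 CPM scale this was 2.35, 2.55, 4.05 and 2.76 in internal and 1.55, 2.22 and 1.92 in external samples. The groups did not overlap, and internal replicate 3 lay above the other internal samples. The means of 2.93 ± 0.77 (SD, n = 4) and 1.90 ± 0.33 (SD, n = 3) differed by 1.03, with a 95% interval of -0.08 to 2.14, and the difference did not pass the test (limma adjusted p = 0.184). Without internal replicate 3 it was 0.65.

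*Ackr3* had 20, 56, 17 and 144 reads in internal and 71, 62 and 22 in external samples, and the groups overlapped. Its mean was 2.54 ± 0.83 log2 CPM in internal (SD, n = 4) and 3.33 ± 0.62 in external samples (SD, n = 3). The difference of -0.79 had a 95% interval of -1.85 to 0.26 (limma adjusted p = 0.292). *Cxcr4* minus *Ackr3* was 0.39 ± 1.22 on the log2 scale in internal (SD, n = 4) and -1.44 ± 0.67 in external samples (SD, n = 3), and these did not differ beyond their spread (two-sided exact permutation p = 0.0857; 0.137 after adjustment over the 8 pair tests). It was below 0 in all 3 external samples and above 0 in internal replicates 1 and 3 only.

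**Figure D2:**
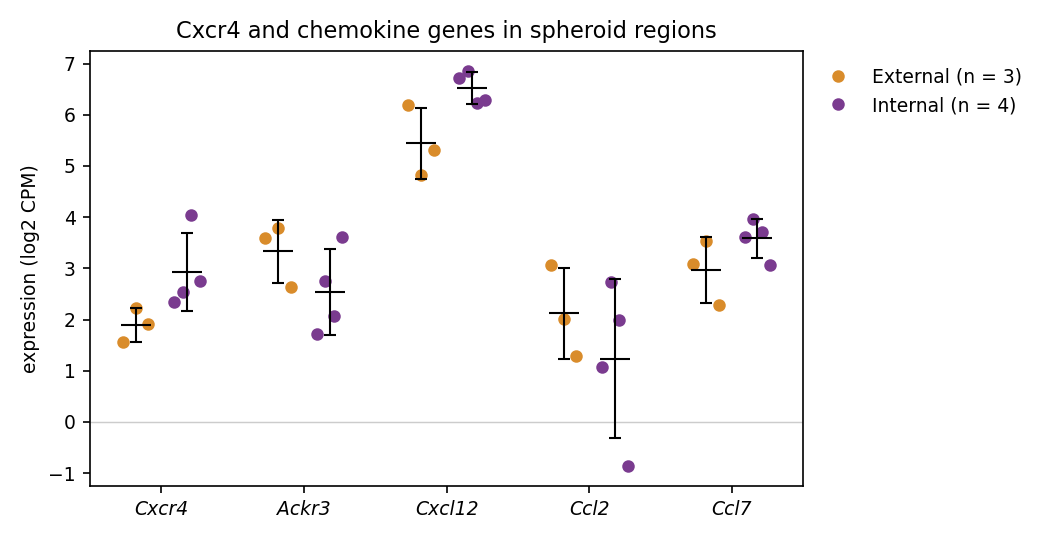
Expression in log2 CPM (vertical axis) of the 5 measured genes in external (n = 3) and internal (n = 4) regions. Each point is a sample, and the bars are the mean and SD. *Cxcl12* and *Cxcr4* lie higher in every internal sample, and the other 3 genes overlap.

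*Ccl7* had 79, 133, 56 and 98 reads in internal and 50, 52 and 17 in external samples. The groups overlapped, and the difference of 0.62 on the log2 scale had a 95% interval of -0.24 to 1.48 (limma adjusted p = 0.317). *Ccl2* had 12, 55, 16 and 3 reads in internal and 49, 17 and 8 in external samples. The groups overlapped, with internal replicate 4 the lowest, and the difference of -0.88 had a 95% interval of -2.53 to 0.76 (limma adjusted p = 0.469). With 1 sample left out this difference ranged from -1.38 to -0.19, the latter without internal replicate 4.

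**Figure D3:**
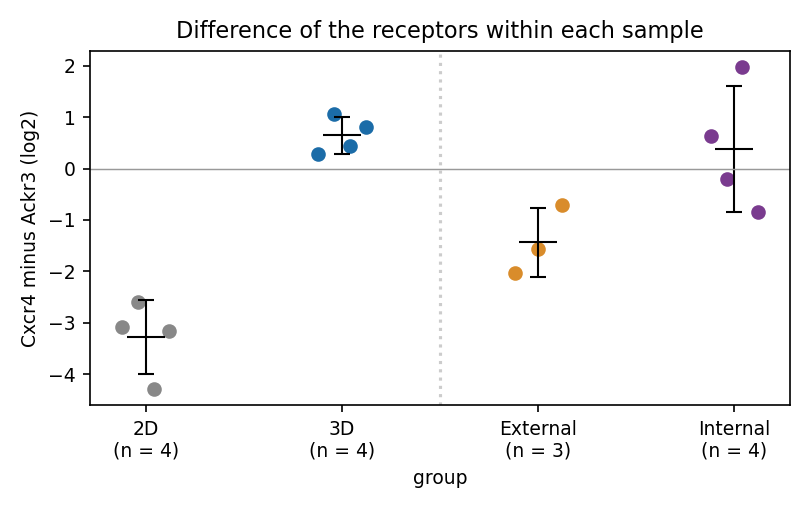
Log2 CPM of *Cxcr4* minus that of *Ackr3* (vertical axis) within each sample, by group. Points are samples, and bars are the mean and SD. The dotted line parts the tables, which were normalized separately. All 2D and external samples lie below 0 and all 3D samples above it.

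The wider chemokine family was sparse in these cells. In the cultures, values were found for 4 of 15 CXC ligands, 8 of 23 ligands of the other classes and 3 of 24 receptors (*Cxcr4*, *Ackr3* and the CX3CL1 receptor *Cx3cr1*). Of these, *Ccl8* and *Cxcr4* were called, both higher in 3D, against 2.92% of all genes called higher. *Ccl8* had 41, 24, 3 and 10 reads in 2D and 313, 425, 449 and 684 in 3D, a log2 difference of 4.93 ± 0.57 (SE; limma adjusted p = 0.00074), the 8th highest of all genes. *Cxcl10*, an interferon-induced ligand, had 10, 13, 0 and 2 reads in 2D and 14, 30, 43 and 59 in 3D. Its groups did not overlap, and its log2 difference of 2.58 did not pass (limma adjusted p = 0.027). The groups of *Cx3cl1*, a membrane-bound ligand, and of *Ccl25*, a ligand of thymus and gut, did not overlap either, with log2 differences of 1.31 (limma adjusted p = 0.017) and -1.18 (0.0216). Groups that did not overlap were found for 24.0% of all genes. The remaining *Ccl5* (1.57), *Ccl17* (0.65), *Cx3cr1* (0.31), *Ccl9* (-0.15) and *Cxcl5* (-1.05) had overlapping groups.

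In the regions, 1 CXC ligand, 9 ligands of the other classes and 3 receptors had values. *Cxcl12*, *Ccl8* and *Cx3cl1* were called, all higher in the internal region, against 3.27% of all genes called higher there. *Ccl8* had 625, 783, 295 and 969 reads in internal and 195, 101 and 101 in external samples, a log2 difference of 1.61 ± 0.21 (SE; limma adjusted p = 5.16e-06). *Cx3cl1* had 595, 1053, 631 and 1461 reads in internal and 490, 217 and 91 in external samples, a log2 difference of 1.37 ± 0.27 (SE; limma adjusted p = 0.0006). In both, all internal samples exceeded all external ones, as they did for 13.5% of all genes. The log2 differences of *Ccl27a* (1.36), *Cx3cr1* (0.56), *Ccl25* (0.02), *Ccl17* (-0.24), *Ccl9* (-0.61) and *Ccl5* (-1.11) did not pass. *Ccl27a* shared 807 of 1422 stretches of 50 nt with other genes, so its reads are uncertain.

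**Figure D4:**
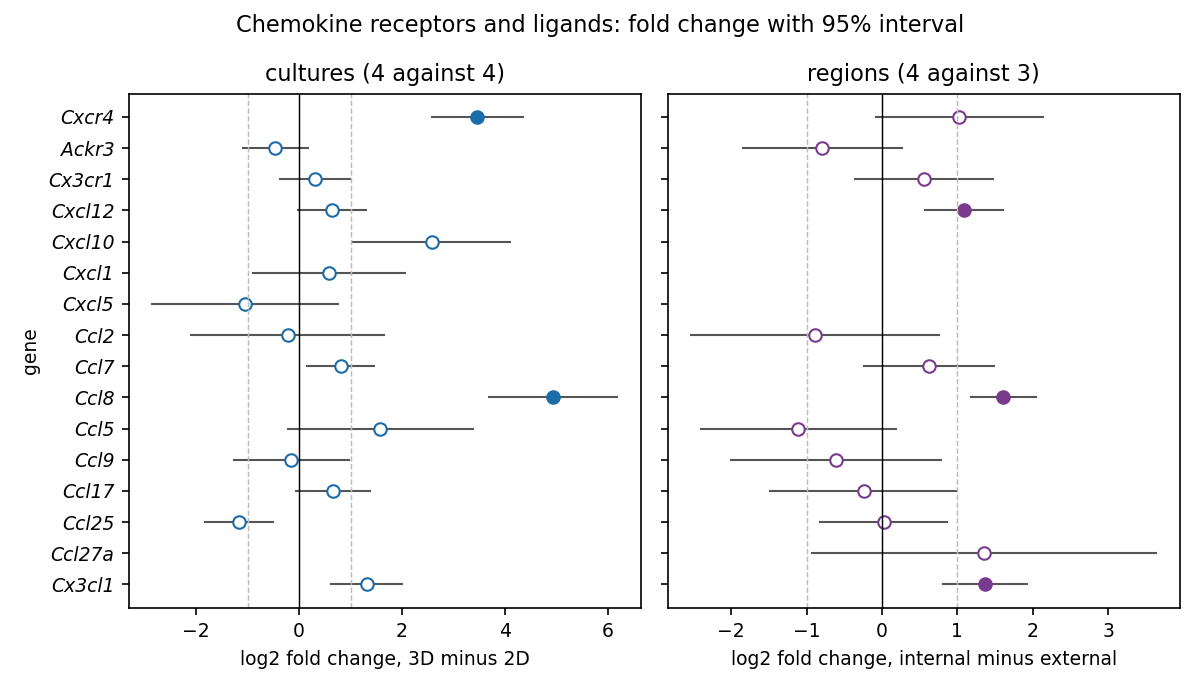
Log2 fold change (horizontal axis) with its 95% interval for the measured chemokine receptors and ligands, 3D minus 2D (left) and internal minus external (right). Filled points were called, dashed lines mark a log2 fold change of 1 in either direction, and genes with no point had no values in that table. *Cxcr4* and *Ccl8* are called in the cultures, and *Cxcl12*, *Ccl8* and *Cx3cl1* in the regions.

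Of 26 genes that carry or end the CXCR4 signal, 19 were measured in the cultures, of which 1 rose and 2 fell in 3D (3 of 19, against 4.43% of all genes called), with a median log2 difference of -0.10 against -0.03 over all genes. The receptor kinase gene *Grk5* rose by 1.04 (limma adjusted p = 0.0064). The related kinase gene *Grk6* fell by 1.08 (limma adjusted p = 0.0038) and *Pik3cb*, a catalytic subunit of PI3 kinase, fell by 1.07 (0.0055). The most abundant members were *Mif* (-0.02), whose product also binds CXCR4, *Gnai2* (0.41), *Rac1* (-0.14) and *Gnb1* (-0.02), and none of these log2 differences passed. In the regions 19 were measured, of which 3 were higher and 2 lower inside (5 of 19, against 7.62% of all genes called), and the median log2 difference was 0.15 against 0.04 over all genes. *Arrb1* (β-arrestin) was higher by 1.65 on the log2 scale (limma adjusted p = 0.000266), *Elmo1*, which couples receptors to Rac, by 3.26 (0.00152), and *Rgs2*, an inhibitor of G protein signalling, by 1.30 (4.23e-06). *Grk6* (-1.01, limma adjusted p = 0.00123) and *Pik3cb* (-1.35, 0.00267) were lower.

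Several of the ligands are known targets of NF-kB. Of 31 genes of that pathway and its targets, 27 were measured in the cultures, of which 2 rose in 3D and none fell (2 of 27, against 2.92% of all genes called higher), with a median log2 difference of 0.47 against -0.03 over all genes. The called genes were *Relb*, a subunit of the non-canonical pathway (1.74, limma adjusted p = 0.0013), and *Cebpd*, a transcription factor of the acute phase response (2.79, 0.0019). In the regions 25 were measured, of which 2 were lower inside and none higher (2 of 25, against 4.35% of all genes called lower), and the median log2 difference was -0.06 against 0.04 over all genes. The genes called lower were *Tnfaip2* (-1.54, limma adjusted p = 0.0018) and *Ptgs2*, the inducible cyclooxygenase (-2.42, 0.0084). Groups that did not overlap were found for 6 of the 27 genes with higher and none with lower values in 3D (against 12.0% of all genes in each direction), and for 8 of the 25 with lower and 2 with higher internal values (against 15.4% and 13.5% of all genes). The most abundant genes that were not called in the cultures were *Csf1* (log2 difference -0.35), *Nfkbia* (0.28), *Vcam1* (0.98) and *Ier3* (1.09), of which *Vcam1* and *Ier3* had groups that did not overlap (limma adjusted p = 0.017 and 0.018). In the regions they were *Nfkb2* (-0.43), *Cebpd* (0.10), *Csf1* (-0.72) and *Rela* (0.04), of which *Nfkb2* and *Csf1* had groups that did not overlap (limma adjusted p = 0.041 and 0.0058).

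To describe which genes varied like each one from sample to sample, the group means were subtracted and genes averaging 2 log2 CPM or more were ranked by Pearson's r over the 8 cultures or the 7 region samples. With so few samples, r close to 1 was reached for each of the 6 genes. For *Cxcr4* the leading genes in the cultures were *Apcdd1* (0.98), *Extl2* (0.96) and *Myl12b* (0.96). For *Cxcl12*, *Col5a1* (0.98), *Lpar6* (0.98) and *Map4k4* (0.97) led in the cultures, and *Atp1b1* (0.99), *Slc25a36* (0.98) and *Col3a1* (0.98) in the regions. For *Ackr3*, *Rnf138* (0.98) led in the cultures and *Bmp2* (0.98) in the regions. With the group means kept, *Ccl8* was the gene closest to *Cxcr4* in the cultures (0.99, of 9891 genes ranked). Among the 6 genes themselves, *Ackr3* and *Ccl2* varied most alike within the cultures (r = 0.88) but not within the regions (r = -0.27). *Cxcl12* and *Cxcr4* had r = -0.18 in the cultures and -0.63 in the regions. The samples of a table share their normalization, and these r values are descriptions.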

How the data were processed

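RNA from 15 samples of 21EM15 cells was measured by QuantSeq 3′ end sequencing. RNA of cultures and of microdissected regions was extracted with different kits. The authors kept sense reads, aligned them with STAR 2.7.8a to GRCm38.p6, assigned reads of unique position to genes with featureCounts 1.6.0, removed genes of low CPM and tested with edgeR. As deposited, the values of each sample are log2 CPM to which the authors added a small prior count proportional to its library size, in 2 tables normalized separately. The tables also hold the authors' fold changes, p-values and FDR, which were not used. A further external sample that the study set aside was not analysed here.

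Whole reads were recovered from the spacing of the values (100.0% of values within 0.01 of a whole read), with prior counts of 1.13 to 3.67 reads. The values are log2 and not counts, so groups were compared with limma 3.58.1 in R 4.3.3 (variance trend, two-sided, Benjamini-Hochberg over all genes of a table, tests within a table). A check on simulated reads changed only genes with many reads and gave all genes the same dispersion. It therefore does not cover genes with few reads, such as *Cxcl1*, or with a wide spread, such as *Ccl2*. The call thresholds are those of the study's results section, while its methods give an FDR of 0.05, tried as an alternative. Alternatives were the variance prior, thresholds, filters, a pseudocount of 1 CPM, scaling, the replicate block and left-out samples. Gene pairs were compared by exact permutation over samples in Python 3.11.15 with numpy 2.4.6. Positions are from GENCODE vM21, and promoters from RefSeq. Deviations of same-numbered samples correlated at 0.227, 0.503, 0.066 and 0.005 in the cultures and between -0.065 and -0.044 in the regions. The labels do not say that the numbers pair samples, so the main fit assumed no pairs and the replicate block was an alternative. Whether cultures of the same number shared a batch was not tested.

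The genes, the lists and the rule for named genes were chosen with earlier results of these data known. The text names the 6 genes, every measured chemokine or receptor, the called genes of the signalling and NF-kB lists and examples of their most abundant members, and the leading genes of like pattern, of which the first 3 per gene were ranked.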

Additional observations from a re-analysis of the deposited data

Results flagged for a closer look

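In 2 of 17 sets of 4 samples tested, of the 6 genes in each group of 4 with values, 1 sample stood apart by Dixon's criterion (gap to the nearest sample over the range), and chance alone gives this in about 1 in 20 sets. Both were *Ccl2*. In 2D the ratio was 0.894, set by replicate 1 with 1880 reads (197 CPM) against 89 to 139 reads in the other 2D samples. In 3D it was 0.867, set by replicate 2 with 57 reads (7.04 CPM) against 246 to 293 reads in the others. These libraries stood at the edge of their group for most of the 6 genes. In 2D replicate 1, *Cxcr4*, *Ackr3* and *Cxcl1* were also the highest of the group, while *Cxcl12* and *Ccl7* lay within its range. In 3D replicate 2, *Ackr3*, *Cxcl12*, *Cxcl1* and *Ccl7* were also the lowest, while *Cxcr4* lay within the range. *Cxcr4* was called without 2D replicate 1 (3.76, limma adjusted p = 0.000892) and without 3D replicate 2 (3.46, 0.00333). What set these libraries apart was not tested.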

How the results depend on the processing

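The *Cxcr4* call between 3D and 2D was kept in all 20 alternatives (log2 difference 3.01 to 3.76, limma adjusted p from 0.000287 to 0.00607). The other genes kept their direction and their side of the threshold except as follows. *Ccl2* between 3D and 2D ranged from -0.59 to 0.75 with 1 sample left out, and was 0.7454 without 2D replicate 1 and 0.3306 without 3D replicate 2. Without both, an alternative chosen after seeing the data by these *Ccl2* values themselves and so no evidence of a rise, it was 1.2948 (limma adjusted p = 0.00826), which made 2 of the 6 genes called. *Cxcl1* ranged from -0.05 to 1.06 with 1 sample left out and was -0.0529 without 2D replicate 2. Over all its alternatives *Cxcl1* reached 1.2062. It had no value under filters on a mean of 1 or 2 log2 CPM. *Cxcl12* between the regions was 1.0843 with no variance trend, where its call was lost (limma adjusted p = 0.0816) and 0 of the 5 measured chemokine-system genes described here were called, and ranged from 0.7761 to 1.4603 with 1 sample left out, with 0 to 1 of those 5 called. The cause was not tested.

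With a replicate block, *Cxcr4* stayed at 3.4651 (limma adjusted p = 0.00151) and *Cxcl12* between the regions was 1.1649 (0.00652), internal replicate 4 having no partner. The block changed no call among these genes, and over all genes the calls went from 517 to 602 for the cultures and 861 to 665 for the regions. With no variance trend 324 genes were called between the regions, and with no fold threshold 1478. At an adjusted p under 0.05 the calls in the cultures went from 517 to 978, and *Cxcl10*, *Cx3cl1* and *Ccl25* passed, while no further gene of the 6 did. *Ccl7* between 3D and 2D had an adjusted p of 0.0058 in the block, with its difference of 0.81 under the fold threshold. *Cxcl12* between 3D and 2D had a limma adjusted p of 0.0239 in the block, with its difference of 0.64 also under that threshold. *Cxcl1* in the cultures and *Ccl2* in the regions each had a sample at 3 reads or fewer. For *Cxcl1* this was 2D replicate 2, the library with the fewest reads of the cultures (7305053). For *Ccl2* it was internal replicate 4, the library with the most reads of the regions (11702504).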

Other observations

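Some of these genes differed within the 2D group in the same way, a pattern chosen after the values were seen. *Ccl9* had 232 and 202 reads in 2D replicates 1 and 2 and 43 and 60 in replicates 3 and 4. *Ccl5* had 68 and 79 reads in the former and 4 and 7 in the latter. *Ccl8*, *Cxcl10*, *Ccl17* and *Cxcr4* (1.84 and 1.28 log2 CPM against -0.09 and 0.85) had the same order, which made 6 of the 15 measured chemokine and receptor genes, against 21.8% of all 11677 genes. *Cxcl12* had the opposite order, as had 15.9% of all genes, and the other 8 genes had neither. In 3D, *Ccl9* lay between 74 and 100 reads and *Ccl5* between 39 and 97. The labels give no batch that separates these 2D samples, and the cause was not tested.

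*Ccl7* and *Ccl2* were lower in both microdissected regions than in whole 3D spheroids. Mean *Ccl7* was 6.45 log2 CPM in 3D and 3.59 in the internal region, the higher of the regions, a difference of -2.86 that only 3 of 11041 genes exceeded in the same direction (*Pfn1*, *Rhox5* and *Aldh18a1*). Mean *Ccl2* was 4.51 in 3D and 2.12 in the external region, a difference of -2.39, below which lay 14 of the 11041 genes. *Cxcr4* differed by -1.51, below which lay 125 genes, and *Ccl9* by -1.45, below which lay 155. *Ackr3* (-0.46), *Ccl17* (-0.38), *Ccl5* (-0.25) and *Cx3cl1* (-0.06) lay below the median of all genes (0.29), *Cxcl12* (0.36) and *Ccl8* (0.54) near it, and *Ccl25* (1.03) and *Cx3cr1* (1.21) above it. The tables were normalized separately and the RNA of spheroids and regions was extracted with different kits, so these differences were not tested, and the undissected region, the extraction and the normalization cannot be told apart.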
